A study of Mus musculus with 12 samples.

Results

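The genes of the mouse mitochondrial genome comprise 13 messenger RNAs, 2 ribosomal RNAs and 22 transfer RNAs. They were taken as every row of the count table whose symbol begins with mt-, which gave 37 of 41388 gene rows. All 37 matched GENCODE M21, the annotation of the GRCm38 build used for positions. RNA selected for poly(A) from the cortex of adult mice was sequenced in 12 libraries, 3 in each of 4 groups, each library from its own numbered animal. All groups share the C57Bl/6 background. KI is a knock-in labelled Grin1-exon5+/+, constitutive for exon 5 of Grin1, the gene of the obligatory NMDA receptor subunit, and KO is a knockout labelled Grin1-exon5-/-. KI_WT and KO_WT are the wild types of the knock-in and of the knockout line. The tables hold 1 value per gene, so the state of exon 5 could not be checked in them.

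Mitochondrial DNA is transcribed from both strands into long precursors that are cut at the transfer RNAs lying between the other genes. Its messenger RNAs encode subunits of complex I (mt-Nd1 to mt-Nd6 and mt-Nd4l), complex III (mt-Cytb), complex IV (mt-Co1 to mt-Co3) and the ATP synthase (mt-Atp6 and mt-Atp8). The 2 ribosomal RNAs, mt-Rnr1 and mt-Rnr2, belong to the mitochondrial ribosome. All other respiratory chain subunits, and the enzymes that copy, transcribe and process the mitochondrial genome, come from nuclear genes. Nuclear chromosomes also carry inserted copies of mitochondrial DNA.

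One such insert bears on the measurement of these genes. On chr1:24611535-24616197, minus strand, 7 annotated pseudogenes lie in the order of the mitochondrial genome and match it over 4140 aligned bases with 2 mismatches. They correspond to chrM:6390-11042, a stretch of 4653 bases. The positions in both genomes ran in parallel to within 1 base. The stretch takes in mt-Co2, mt-Atp8, mt-Atp6, mt-Co3, mt-Nd3 and mt-Nd4l whole, 31.3% of mt-Co1 and 63.6% of mt-Nd4. mt-Atp8 has no annotated copy of its own and is placed inside because it lies between copied genes. The other 5 messenger RNAs (mt-Nd1, mt-Nd2, mt-Nd5, mt-Nd6 and mt-Cytb) and both ribosomal RNAs lie outside. A second, less similar insert on chromosome 2 holds Gm13340 (97.6% identical to mt-Co1 over 1545 bases), Gm13341 (95.9% to mt-Co2 over 684 bases) and Gm13339 (96.7% to mt-Nd2 over 510 bases).

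The first 60 bases of mt-Co2 are shown with the same bases of its identical copy Gm28661 and of the chromosome 2 copy Gm13341, to show how little separates the 3 loci. Capitals mark the bases that differ from mt-Co2, of which Gm13341 has 2 in this window. Positions are in GRCm38 at chrM:7013-7072 (plus strand), chr1:24615506-24615565 (minus strand) and chr2:22587903-22587962 (minus strand).
mt-Co2: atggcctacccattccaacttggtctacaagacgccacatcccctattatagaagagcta
Gm28661: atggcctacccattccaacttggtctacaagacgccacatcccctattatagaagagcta
Gm13341: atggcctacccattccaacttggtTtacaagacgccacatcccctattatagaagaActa

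Both mismatches between the stretch and its chromosome 1 copy are shown next, since no other aligned base tells the 2 loci apart. The first, A1066T counted from the first base of mt-Co1, lies in the window chrM:6390-6449, paired with chr1:24616129-24616188. The second, T3C counted from the first base of mt-Nd3, lies in the window chrM:9459-9518, paired with chr1:24613060-24613119. Capitals mark the differing base on each line.
mt-Co1: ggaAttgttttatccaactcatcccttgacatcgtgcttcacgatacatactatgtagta
Gm29216: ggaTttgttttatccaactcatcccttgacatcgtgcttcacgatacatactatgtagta
mt-Nd3: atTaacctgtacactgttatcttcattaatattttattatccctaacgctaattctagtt
Gm28438: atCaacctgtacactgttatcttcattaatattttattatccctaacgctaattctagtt

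The chromosome 1 copies held counts of the same order as the mitochondrial genes inside the stretch. Gm28661 had 291 to 486 counts per library against 261 to 655 on mt-Co2. Gm10925, the copy of mt-Atp6, had a mean of 782 counts, above the 552 of mt-Atp6 itself. Gm11407 and Gm4076, less similar copies of mt-Nd5 on other chromosomes, had 5 to 20 and 2 to 20 counts. Gm10222, the copy of mt-Nd4l, had 9 to 36 counts against 25 to 51 on the gene. mt-Co3 exceeded its copy Gm28437 by a ratio of means of 6.03, and mt-Nd3 exceeded Gm28438 by 5.90. The 2 genes only partly inside were far above their copies, with ratios of 1307 for mt-Co1 against Gm29216 and 344 for mt-Nd4 against Gm28439. How reads that match both loci were counted is not given in the sources used here, and the part of such reads in any level was not tested. The genes inside the stretch are therefore reported as uncertain throughout, and separately from the other 7 messenger RNAs.

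**Figure D1:**
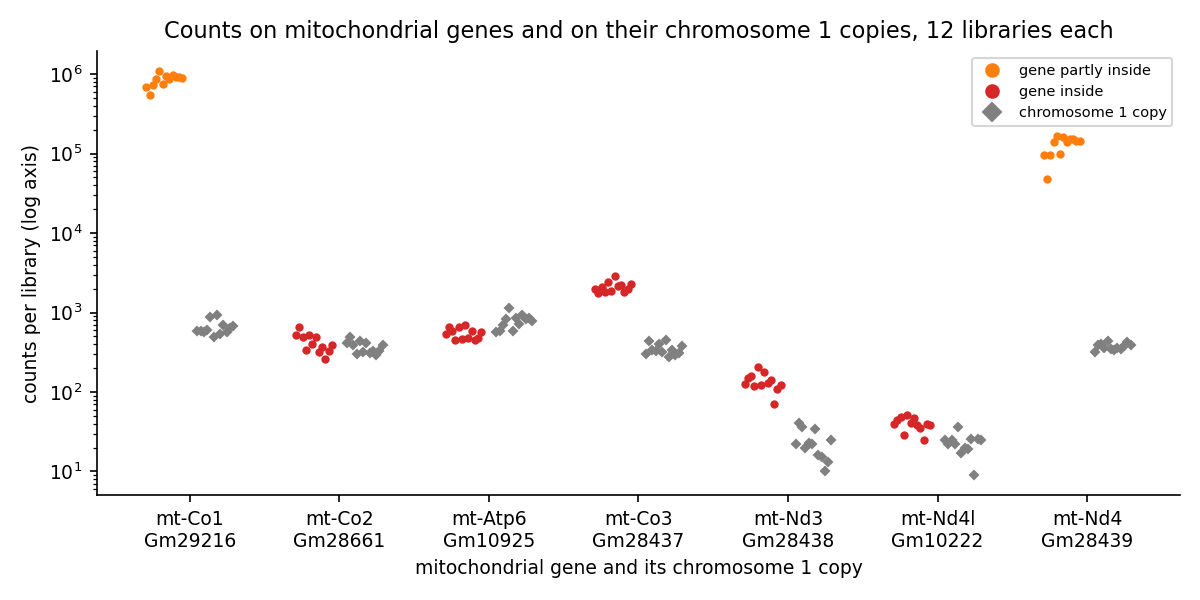
Counts per library (log axis) of 7 mitochondrial genes and of the chromosome 1 pseudogene that copies each, with 1 point for each of the 12 libraries. mt-Co1 and mt-Nd4, partly inside the copied stretch, stand far above their copies, while the 5 genes inside it have ratios of means to their copies of 0.706 to 6.03.

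Levels were compared between genes per length, as the deposited RPKM (reads per kilobase of gene, scaled to library size). These are levels in RNA selected for poly(A), and levels in total RNA were not measured. mt-Co1, the catalytic core of complex IV, had the highest mean over the 12 libraries at 16220 RPKM, with a range of 10594 to 21107. It was followed by mt-Cytb, the cytochrome b of complex III, at 9031 and mt-Nd1 of complex I at 7814. mt-Rnr2 (5268) and mt-Rnr1 (5033) came next, then mt-Nd2 (4520), mt-Nd5 (3656) and mt-Nd4 (2752), all of complex I. mt-Nd6, the only messenger RNA on the other strand, lay at 483. Below it came the 6 genes inside the stretch, with mean RPKM of 79.0 for mt-Co3, 26.4 for mt-Atp8, 23.9 for mt-Atp6, 18.4 for mt-Co2, 11.6 for mt-Nd3 and 3.97 for mt-Nd4l. The median of these 6 means was 21.1 RPKM and that of the 5 wholly outside was 4520, a ratio of 214. RPKM divides by the whole gene, and mt-Co1 and mt-Nd4 lie partly inside the stretch. Divided by the bases outside it alone, mean counts per base were 798 for mt-Co1 and 256 for mt-Nd4. They were 153 for mt-Nd2, 124 for mt-Nd5, 170 for mt-Rnr1 and 178 for mt-Rnr2. The place of mt-Nd4 in the order thus depends on the length used, and the part of uncounted reads was not tested.

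Most of the order in RPKM was the same in every library. In 11 of the 14 pairs of neighbours the higher gene was higher in 12 of 12 libraries. The exceptions were mt-Rnr2 over mt-Rnr1 (11 of 12), mt-Atp8 over mt-Atp6 (10 of 12) and mt-Rnr1 over mt-Nd2 (8 of 12). mt-Atp8 and mt-Atp6 share 43 bases on 1 strand, mt-Nd4l and mt-Nd4 share 7, and mt-Nd5 and mt-Nd6 share 14 on opposite strands. Bases shared by mt-Atp8 and mt-Atp6, and by mt-Nd4l and mt-Nd4, lie on the same strand, so strand cannot separate their reads. The strand setting of the counting is not given in the sources used here, so reads of the bases shared by mt-Nd5 and mt-Nd6 cannot be told apart either.

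**Figure D2:**
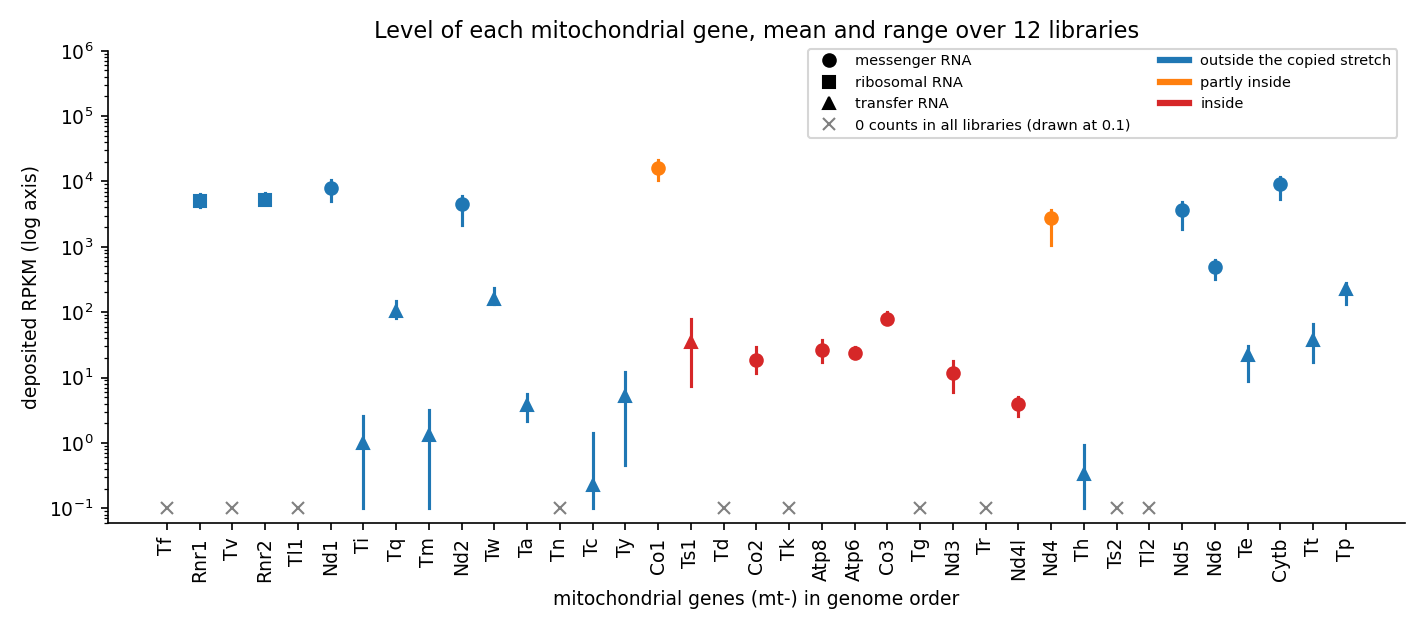
Mean deposited RPKM (log axis) of each of the 37 mitochondrial genes in genome order, with bars from the lowest to the highest of 12 libraries; colour gives the position relative to the stretch copied on chromosome 1, and crosses at 0.1 mark genes at 0 counts. The 6 messenger RNAs inside the stretch (3.97 to 79.0) lie below the 9 other messenger and ribosomal RNAs (483 to 16220).

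Transfer RNAs were sparse in these libraries of RNA selected for poly(A). Of the 22 genes 10 had 0 counts in all 12 libraries (mt-Tf, mt-Tv, mt-Tl1, mt-Tn, mt-Td, mt-Tk, mt-Tg, mt-Tr, mt-Ts2 and mt-Tl2), where the tables list 0. The 12 with counts were unevenly spread over the strands. On the plus strand, which carries 12 of the 13 messenger RNAs, 5 of 14 had counts and 2 reached a mean of 10. On the minus strand 7 of 8 had counts and 5 reached a mean of 10. The 7 with a mean of at least 10 counts were mt-Tp (223 RPKM), mt-Tw (157), mt-Tq (105), mt-Tt (38.1), mt-Ts1 (35.0), mt-Te (21.8) and mt-Ty (5.20). mt-Ts1, the transfer RNA for serine that reads UCN codons, lies inside the copied stretch on the strand opposite to mt-Co1 and shares 3 bases with it.

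Total counts were 31790970 to 36514024 per library, and the mitochondrial genes together took 4.62% to 9.31% of them. Markers of cerebral cortex (9 of 9) were present in every group, with summed levels of 3438 to 5716 CPM (counts scaled to library size with TMM factors). Markers of thalamus (8), choroid plexus (10) and olfactory bulb (8) were also present, with summed ranges over all libraries of 112 to 370, 23.9 to 1963 and 14.3 to 374. In bulk tissue, fewer cells of a type and less RNA per cell cannot be told apart.

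The share of counts on the 13 messenger RNAs was lowest in KI. It was 4.44%, 3.48% and 4.95% in KI 1 to 3, and 6.43%, 7.63% and 5.06% in KI_WT 1 to 3. All 3 KI libraries lay below all 3 KI_WT libraries, though KI 3 and KI_WT 3 were close. The means were 4.29% ± 0.749 and 6.37% ± 1.29 (SD, n = 3 each), a ratio of 0.673 (two-sided exact permutation p = 0.1, which is the smallest that 3 against 3 allows, and 0.2 adjusted over 4 comparisons). The groups of the knockout line were closer together. KO libraries had 6.31%, 6.13% and 6.31%, and KO_WT libraries 6.63%, 6.29% and 6.38%, so that the groups overlapped (ratio 0.971, exact permutation p = 0.3). SDs were 0.105 in KO and 0.176 in KO_WT. As a percentage of the summed RPKM of nuclear genes, KO lay below KO_WT without overlap (ratio 0.925, exact permutation p = 0.1).

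The share of the ribosomal RNAs overlapped between KI and KI_WT. It was 1.14%, 1.14% and 1.33% in KI and 1.27%, 1.67% and 1.22% in KI_WT (ratio of means 0.869, exact permutation p = 0.3). The ratio of counts on the 7 messenger RNAs not wholly inside the stretch to counts on the ribosomal RNAs was 3.87, 3.04 and 3.71 in KI. It was 5.07, 4.56 and 4.12 in KI_WT, 4.05, 4.82 and 5.19 in KO, and 5.05, 4.99 and 4.63 in KO_WT. KI lay below KI_WT without overlap (ratio of means 0.772, exact permutation p = 0.1), and below KO without overlap (0.755, exact permutation p = 0.1), each 0.2 adjusted over 4 comparisons. KO against KO_WT gave 0.958, with overlap (exact permutation p = 0.7). The ratio of mt-Nd4 to mt-Co1 counts was 0.141, 0.0889 and 0.131 in KI, with the lowest value in KI 2. The KI mean of this ratio was 0.807 of the KI_WT mean (exact permutation p = 0.2).

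**Figure D3:**
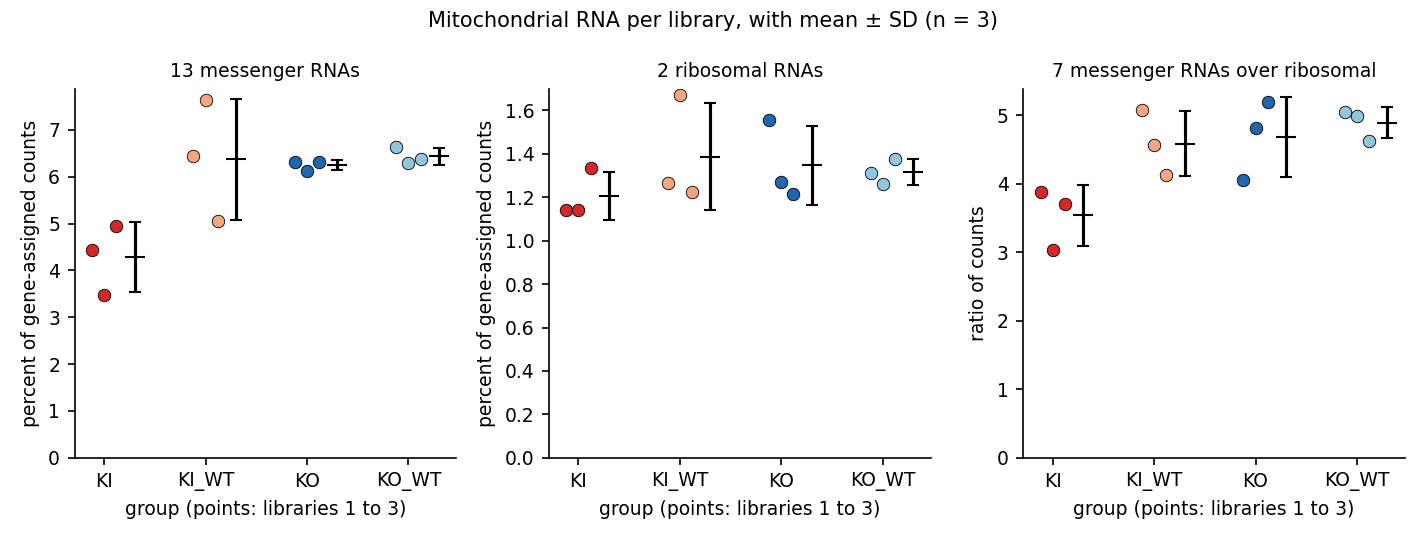
Percent of gene-assigned counts on the 13 messenger RNAs and on the 2 ribosomal RNAs, and the ratio of counts on 7 messenger RNAs to ribosomal RNAs, with 1 point per library and the mean ± SD of each group (n = 3). For messenger RNA and for the ratio, the KI libraries (up to 4.95% and 3.87) lie below every KI_WT library, while the groups overlap for ribosomal RNA.

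Single libraries stood out in many genes at once. In TMM-scaled CPM, KI 2 was the lowest of the 12 libraries for 6 of the 7 messenger RNAs not wholly inside the stretch and for both ribosomal RNAs, and KI 1 was the lowest for mt-Nd6. In RPKM, KI 1 was the lowest for mt-Rnr2, at 4622 against 4745 in KI 2. KI_WT 2 was the highest for 6 of these 7 and for both ribosomal RNAs. The 6 genes inside the stretch differed at the low end, since KO_WT 1 was the lowest for 4 of them. At the high end KI_WT 2 was again the highest for 4 of the 6, and KI 2 was the highest for mt-Co2. mt-Nd4 ranged most widely of the 13, with the highest library 3.72 times the lowest. mt-Atp6 ranged least, at 1.44 times.

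**Figure D4:**
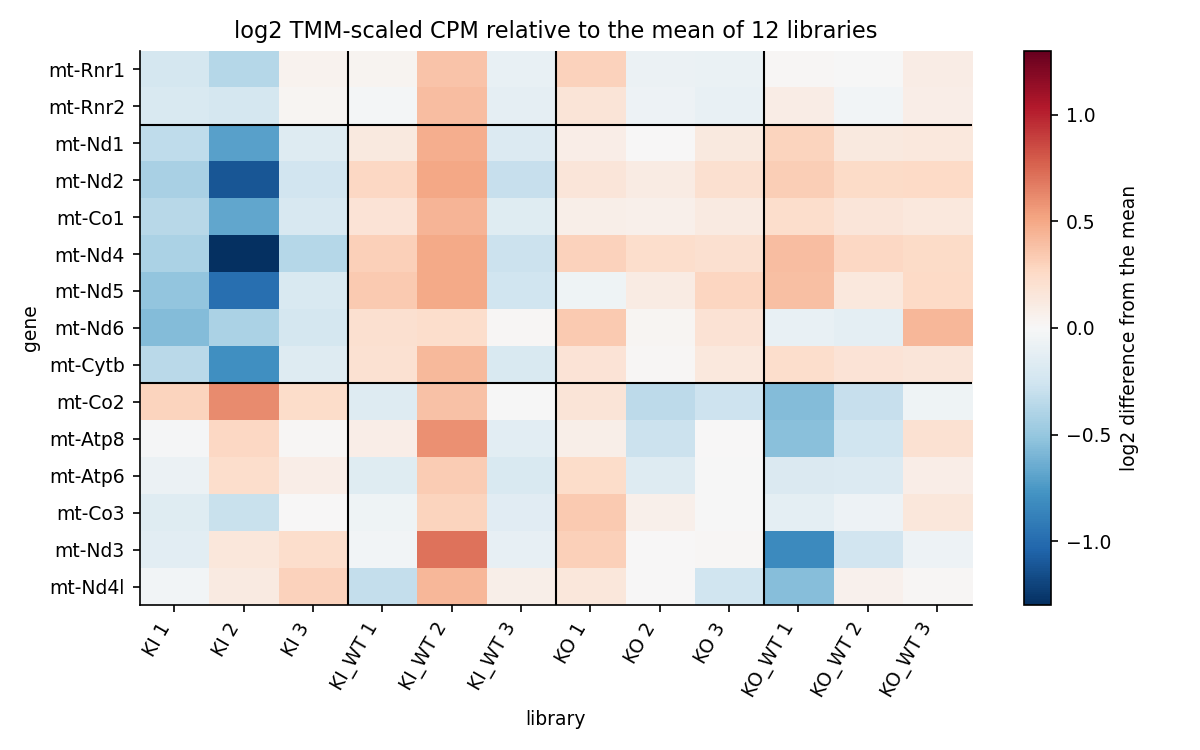
Log2 CPM (TMM-scaled) of the ribosomal RNAs (top), the 7 messenger RNAs not wholly inside the copied stretch (middle) and the 6 inside it (bottom), each relative to its mean over the 12 libraries (columns). KI 2 is the lowest for 6 of the 7 in the middle block and KI_WT 2 the highest for 6 of 7. In the bottom block KO_WT 1 is the lowest for 4 of 6 and KI_WT 2 the highest for 4 of 6.

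Differences between groups were tested with edgeR over all 17441 genes that passed the filter on low counts. Of the 37 mitochondrial genes 23 were tested, namely all 13 messenger RNAs, both ribosomal RNAs and 8 transfer RNAs, and 14 transfer RNAs fell below the filter. A gene is called at a Benjamini-Hochberg adjusted p under 0.05, and groups do not overlap where all libraries of one lie above all of the other. For added terms, left-out libraries and other tools, counts of mitochondrial genes at an unadjusted p under 0.05 take both directions. No share of all genes was taken in those fits, so rises and falls of these counts are not read as particular to mitochondrial genes. KI against KI_WT asks how constitutive exon 5 alters expression within its own line.

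In KI against KI_WT, 0 of the 23 mitochondrial genes were called by edgeR, beside 0% of all genes tested, and 0 by DESeq2 and by limma voom. At an unadjusted p under 0.05, edgeR had 10 of 23 lower and 0 higher, beside 3.92% and 3.04% of all genes. Counted in both directions, DESeq2 had 12 and limma voom 14, without a share of all genes to set beside them. The 7 messenger RNAs not wholly inside the stretch made up 7 of the 10 in edgeR. Their log2 fold changes were -0.87 to -0.55 with a median of -0.58, beside -0.01 for all genes. Groups did not overlap for 3 of the 7, beside 5.87% of all genes. Of the 6 inside the stretch 3 had a lower and 3 a higher mean, beside 51.3% lower of all genes, with a median of -0.04 and 0 at that threshold.

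Complex I held the lowest value of the 13. mt-Nd4 had 1992, 1056 and 2030 RPKM in KI and 3165, 3616 and 2184 in KI_WT, so that every KI library lay below every KI_WT library. Its log2 fold change in edgeR was -0.87 (SE 0.24, adjusted p = 0.705). mt-Nd6, on the other strand, had 325, 377 and 404 RPKM in KI and 534, 542 and 484 in KI_WT, again without overlap (-0.55, SE 0.15). mt-Nd2 and mt-Nd5 were at -0.75 each and mt-Nd1 at -0.55, and in these 3 genes KI 3 reached into the range of KI_WT on the TMM scale of the fit. mt-Nd3 (-0.15, SE 0.24) and mt-Nd4l (0.03, SE 0.24) of complex I lie inside the stretch.

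Complex IV was split the same way. mt-Co1 had 12563, 10594 and 13858 RPKM in KI and 17570, 21107 and 14537 in KI_WT, without overlap (log2 fold change -0.57, SE 0.15, edgeR adjusted p = 0.705). mt-Co2, inside the stretch, had 526, 655 and 493 counts in KI and 335, 520 and 407 in KI_WT, with overlap (0.30, SE 0.19). mt-Co3, also inside, was at -0.18 (SE 0.13). The copies of mt-Co2 gave 0.17 (SE 0.16) for Gm28661, listed as RP23-8J15.2, and 0.48 (SE 0.26) for Gm13341. The copy of mt-Atp6, Gm10925, listed as RP23-8J15.3, was at -0.59 (SE 0.19), whereas mt-Atp6 itself was at 0.07 (SE 0.15).

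mt-Cytb, the single mitochondrial gene of complex III, had 7026, 5392 and 7885 RPKM in KI and 9920, 11557 and 7825 in KI_WT. KI 3 lay just above KI_WT 3, and the log2 fold change was -0.58 (SE 0.17, edgeR adjusted p = 0.705). The ATP synthase genes are both inside the stretch, and mt-Atp8 was at -0.12 (SE 0.22). The ribosomal RNAs mt-Rnr1 and mt-Rnr2 were at -0.29 (SE 0.15) and -0.23 (SE 0.14). Of the 8 transfer RNAs tested, 8 had a lower mean in KI, beside 51.3% of all genes. Of these, 3 had an unadjusted p under 0.05 in edgeR (mt-Tq, mt-Ts1 and mt-Tt), beside 3.92% of all genes lower. mt-Ts1 had 41, 17 and 24 counts in KI and 91, 62 and 36 in KI_WT, with overlap (log2 fold change -1.32, SE 0.40).

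**Figure D5:**
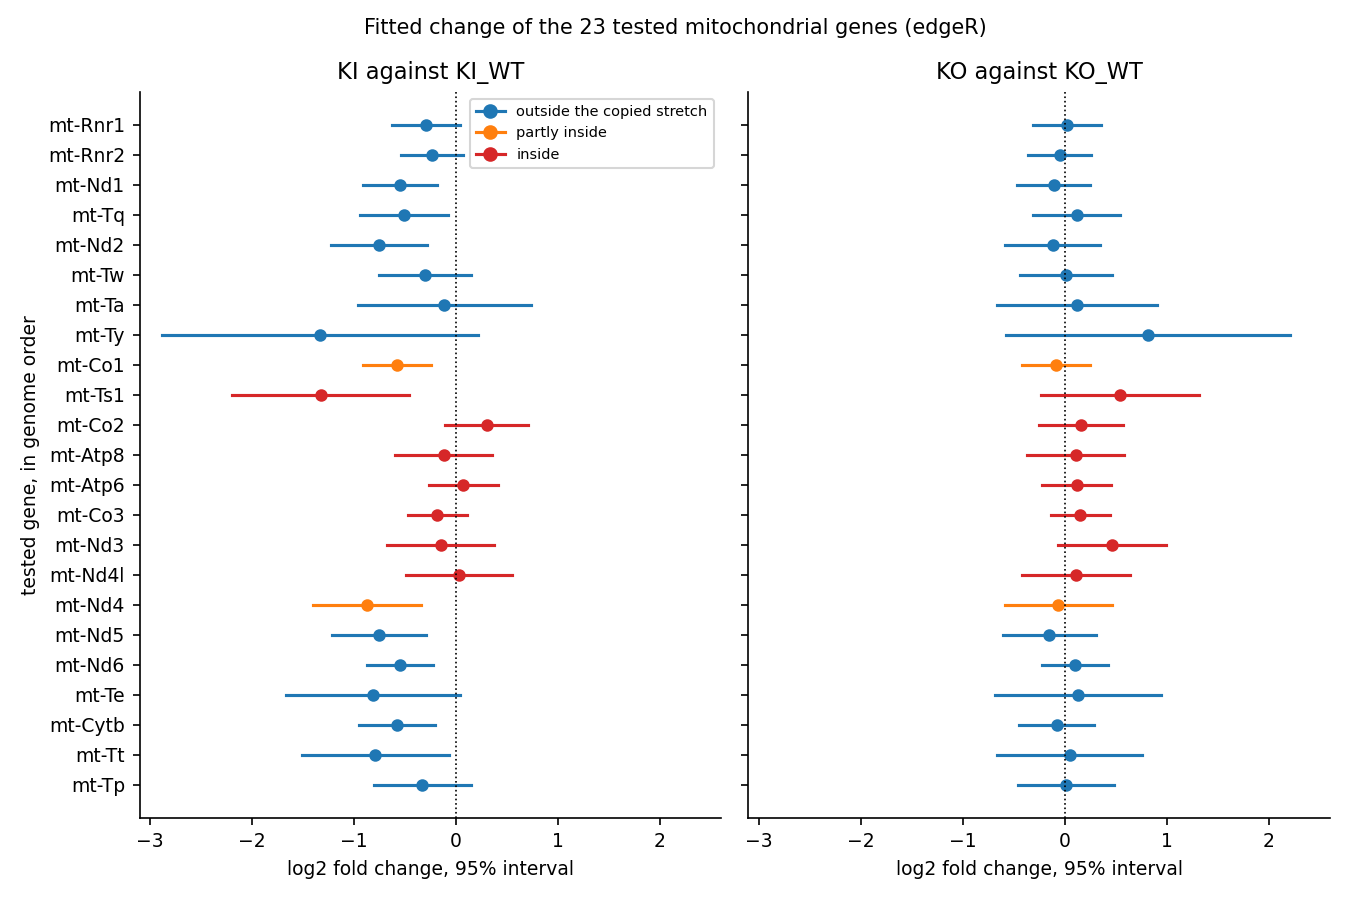
Fitted log2 fold change and 95% interval of the 23 tested mitochondrial genes in KI against KI_WT (left) and KO against KO_WT (right), coloured by position relative to the copied stretch. On the left the 7 messenger RNAs not wholly inside the stretch lie between -0.87 and -0.55 and the 6 inside it between -0.18 and 0.30, while on the right the 13 lie between -0.15 and 0.46; no interval refers to a called gene.

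Thalamic markers moved with this comparison. Their summed level was at least 221 CPM in each KI library and 138 to 147 in KI_WT, and 8 of 8 had a higher mean in KI, 7 of them without overlap, beside 6.32% of all genes. Choroid plexus markers summed to 783 to 1963 in KI and 30.4 to 1693 in KI_WT, and cortical markers to 4089 to 5022 and 3607 to 5686. Olfactory bulb markers summed to 39.0, 81.7 and 39.3 in KI and to 14.5, 24.0 and 374 in KI_WT, and 8 of 8 had a lower mean in KI (median -1.53). Within this comparison KI_WT 3 stood apart in the olfactory bulb and choroid plexus lists. Its olfactory bulb sum (374) was the highest of the 12 libraries. Its choroid plexus sum was 30.4, while KO_WT 1 and KO_WT 3 had similar sums of 23.9 and 35.2. With terms for thalamus, choroid plexus and olfactory bulb markers in the fit, the median of the 7 messenger RNAs was -0.43 and the number of mitochondrial genes at an unadjusted p under 0.05 went from 10 to 0. In that fit mt-Nd4 was at -0.61, mt-Co1 at -0.40, mt-Rnr1 at -0.04 and mt-Rnr2 at 0.05. These 3 terms leave 5 residual degrees of freedom, and the part of tissue composition in the difference was not tested. Y-linked transcripts summed to near 0 in KI 2, KI 3, KI_WT 1, KO 1 and KO 2 (0.0285 to 0.120 CPM). They summed to 191 to 220 in KO_WT, so that they were uneven between mutant and wild type in both lines. The labels give no sex. With a term for Y-linked transcripts the median of the 7 in KI against KI_WT was -0.59. Without KI_WT 2 the median of the 7 was -0.51 and without KI_WT 3 it was -0.73, with 9 and 16 mitochondrial genes at an unadjusted p under 0.05.

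KO against KO_WT asks the same of the removal of exon 5. Here too 0 of 23 mitochondrial genes were called by edgeR, beside 0.00573% of all genes, and 0 by DESeq2 and by limma voom. At an unadjusted p under 0.05 edgeR had 0 of 23, beside 3.79% of all genes lower and 3.43% higher, and 2 without KO_WT 3. The 7 messenger RNAs not wholly inside the stretch had a median log2 fold change of -0.09, with a range of -0.15 to 0.10, beside 0.01 for all genes. Groups did not overlap for mt-Co1 and mt-Nd2, both lower in KO, beside 6.4% of all genes. mt-Co1 had 17315, 17094 and 17174 RPKM in KO and 17977, 17458 and 17397 in KO_WT. The log2 fold change of mt-Co1 was -0.09 with a 95% interval of -0.42 to 0.24, and for mt-Nd2 it was -0.12 with an interval of -0.59 to 0.35.

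All 6 genes inside the stretch had a higher mean in KO, with a median log2 fold change of 0.14, beside 48% of all genes below 0. mt-Nd3 had 14.3, 11.5 and 11.3 RPKM in KO and 6.08, 9.22 and 10.6 in KO_WT, without overlap, beside 5.95% of all genes higher (0.46, SE 0.24, edgeR adjusted p = 0.686). The ribosomal RNAs were at 0.02 and -0.05, and the 8 tested transfer RNAs at 0.01 to 0.82. Animal numbers fall into a range under 200 (KO 1, KO_WT 2 and KO_WT 3 only) and one above it, and the labels do not say what the ranges mean. Within the range above 200, with 2 KO libraries and 1 KO_WT library, the median of the 7 was -0.16 and that of the 6 was 0.34. Within the range under 200, with 1 and 2 libraries, they were -0.04 and 0.28. In both of these fits the lone library is assumed to vary like the other groups. Thalamic markers summed to 151 to 370 CPM in KO and 112 to 270 in KO_WT, and choroid plexus markers to 575 to 1103 and 23.9 to 914. With the regional marker terms the median of the 7 was 0.10 and that of the 6 was 0.03, and the part of tissue composition was not tested here either.

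KI against KO compares the 2 mutants and shares its libraries with the comparisons above. In it the line and the genotype cannot be told apart. edgeR called 0 of 23 mitochondrial genes, beside 0.00573% of all genes, and limma voom 0, beside 1 of all genes. DESeq2 called 1, which was mt-Ts1, beside 14 of all genes. mt-Ts1 lies inside the copied stretch and is thus among the uncertain genes. At an unadjusted p under 0.05 edgeR had 11 lower, beside 3.61% of all genes, and 1 higher, beside 1.82%. All 7 messenger RNAs not wholly inside the stretch were lower without overlap, beside 5.97% of all genes, with a median of -0.59 and a range of -0.90 to -0.46. mt-Nd4 was at -0.90 (SE 0.24), mt-Nd6 at -0.59 (SE 0.15) and mt-Co1 at -0.49 (SE 0.15). With the regional marker terms the median of the 7 was -0.56, and 13 mitochondrial genes had an unadjusted p under 0.05. Without KI 2 that number was 7. mt-Co2 went the other way, with no overlap, beside 4.23% of all genes higher (0.52, SE 0.19). The chromosome 2 copies Gm13340 and Gm13341 were at 0.59 (SE 0.21) and 0.82 (SE 0.26).

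mt-Ts1 had the largest difference of the 23 genes in KI against KO. It had 41, 17 and 24 counts in KI and 190, 143 and 103 in KO, so that every KI library lay below every KO library. Its log2 fold change was -2.39 (SE 0.39, edgeR adjusted p = 0.465). KO_WT had 85, 114 and 78 counts and KI_WT had 91, 62 and 36. Over 19 alternatives the adjusted p ranged from 7.9e-06 with DESeq2 to 0.999 without KI 2, and it was under 0.05 in 2 of them, DESeq2 and edgeR with no count filter (0.0404). The strand setting is not given, so counts on mt-Ts1 and reads of precursors of the strand opposite it cannot be told apart.

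KI_WT against KO_WT compares the wild types of the 2 lines. The 7 messenger RNAs had a median of -0.03, with a range of -0.10 to 0.06, 0 without overlap (beside 7.31% of all genes) and 0 at an unadjusted p under 0.05. edgeR, DESeq2 and limma voom called 0 mitochondrial genes, beside 0% of all genes in edgeR. Of the 6 genes inside the stretch 6 had a higher mean in KI_WT, beside 49.9% of all genes below 0, with a median of 0.31. mt-Nd3 was at 0.58 (SE 0.24), the 1 mitochondrial gene at an unadjusted p under 0.05 in edgeR, beside 1.11% of all genes higher. Here the animal number range goes partly with the line, and with a term for it the median of the 6 was 0.59. The number at an unadjusted p under 0.05 was 0 to 4 with 1 library left out.

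The difference between the KI and the KO effect was tested directly in the same fit. For the 7 messenger RNAs it was -0.81 to -0.44 with a median of -0.60, beside -0.01 for all genes. edgeR, DESeq2 and limma voom called 0 mitochondrial genes, beside 0.00573% of all genes in edgeR. At an unadjusted p under 0.05 edgeR had 6 lower of 23, beside 3.21% of all genes, among them mt-Nd6 (-0.65, SE 0.21), mt-Nd4 (-0.81, SE 0.34) and mt-Co1 (-0.49, SE 0.22). A difference between the 2 effects was thus not detectable after adjustment for any single mitochondrial gene. With the regional marker terms the median was -0.54 and 3 genes had an unadjusted p under 0.05. That number was 13 without KI_WT 3 and 2 to 9 without each of the other libraries in turn.

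Nuclear genes that copy, transcribe and process the mitochondrial genome had medians near 0 in KI against KI_WT. The 4 lists held 0 called genes in each of the 5 comparisons with edgeR, DESeq2 and limma voom. Of 13 genes for mitochondrial DNA replication and nucleotide supply 8 had a higher and 5 a lower mean (median 0.03). Peo1, the mitochondrial DNA helicase Twinkle, was at 0.25 (SE 0.09), the 1 of the 13 at an unadjusted p under 0.05 in edgeR, beside 3.04% of all genes higher, and Dna2, a nuclease and helicase, was at -0.33 (SE 0.27). Of 10 transcription genes, which include the mitochondrial RNA polymerase and its factors, 0 had such a p (median -0.04). Tfb2m, a transcription initiation factor, had the smallest p at -0.16 (SE 0.08), and Mterf1a, of the termination factor family, was at -0.09 (SE 0.16). Of 26 genes of RNA processing and decay 4 were lower and 1 higher at an unadjusted p under 0.05 in edgeR, beside 3.92% and 3.04% of all genes, with a median of -0.03. The higher one was Lrpprc, which stabilises mitochondrial messenger RNAs, at 0.19 (SE 0.06), and Pnpt1, the mitochondrial polynucleotide phosphorylase, was at -0.27 (SE 0.11). Of 10 regulators of mitochondrial biogenesis 0 had such a p, with Esrrg, an estrogen-related nuclear receptor, at -0.22 (SE 0.13) and Ppargc1a, their best known coactivator, at -0.15 (SE 0.10).

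In KO against KO_WT the RNA processing list had 21 of 26 higher means (median 0.08), where 48% of all genes were below 0, and 3 without overlap, beside 5.95% of all genes higher. Its 2 members at an unadjusted p under 0.05 in edgeR, beside 3.43% of all genes higher, were Nsun4 and Hsd17b10. Nsun4, a methyltransferase of mitochondrial ribosomal RNA, was at 0.26 (SE 0.11). Hsd17b10, a subunit of the mitochondrial RNase P, was at 0.20 (SE 0.09). In KI_WT against KO_WT, which shares the KO_WT libraries, 20 of 26 had higher means (median 0.07). The transcription list had 7 of 10 higher means in KO (median 0.07), with Mterfd3 at 0.18 (SE 0.11) and Mterfd2 at 0.14 (SE 0.10), both of the termination factor family. The replication list had 8 of 13 higher (median 0.03), with Top1mt, the mitochondrial topoisomerase, at 0.24 (SE 0.16) and Rrm2b, a ribonucleotide reductase subunit, at -0.16 (SE 0.11). Of the biogenesis regulators 4 of 10 had higher means (median -0.02), with Nrf1 at -0.21 (SE 0.09) and the nuclear receptor Esrra at 0.12 (SE 0.08).

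Nuclear subunits of the same complexes lay on both sides of 0. In KI against KI_WT complex I had 15 of 36 lower and 21 higher (median 0.04), complex III 2 of 9 lower (0.05), complex IV 7 of 11 lower (-0.08) and the ATP synthase 7 of 16 lower (0.02), beside 51.3% lower of all genes. Of these 72 genes edgeR and limma voom called 0, beside 0 of all genes. DESeq2 called 1, in the ATP synthase list, beside 4 of all genes. DESeq2 also called 1 ATP synthase gene in KI against KO, beside 14 of all genes. In the difference of the KI and KO effects it called 1 from that list, beside 5. At an unadjusted p under 0.05 in edgeR, 6 of the 72 were lower in KI than in KI_WT and 1 higher, beside 3.92% and 3.04% of all genes. Atp5g2, a c-ring subunit of the ATP synthase, was at -0.48 (SE 0.10, adjusted p = 0.705), Ndufb4 of complex I at -0.46 (SE 0.14) and Cox7b of complex IV at -0.24 (SE 0.08). The other members with the smallest p were Atp5c1 (-0.20, SE 0.08), Ndufv1 (0.20, SE 0.09), Cox7a2 (-0.22, SE 0.09), Uqcrc2 (-0.17, SE 0.07) and Uqcrc1 (0.14, SE 0.09).

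In KO against KO_WT the nuclear subunits had higher means in KO throughout, while 6 of the 7 mitochondrial messenger RNAs not wholly inside the stretch had lower ones. Higher means were found for 36 of 36 in complex I (median 0.15), 9 of 9 in complex III (0.16), 11 of 11 in complex IV (0.17) and 16 of 16 in the ATP synthase (0.17), where 48% of all genes were below 0. Of the 72, 0 were called by edgeR, DESeq2 and limma voom, and 11, 2, 3 and 3 had an unadjusted p under 0.05, beside 3.43% of all genes higher. Ndufb7 of complex I was at 0.29 (SE 0.09), Cox7b at 0.23 (SE 0.08), Uqcrh of complex III at 0.23 (SE 0.10) and Atp5g1 of the ATP synthase at 0.19 (SE 0.07). Ndufc2 (0.34, SE 0.10), Cox5a (0.22, SE 0.08), Cyc1 (0.16, SE 0.07) and Atp5g3 (0.25, SE 0.11) were the second members of their lists by p. Endothelial markers had 8 of 8 lower means in KO, 3 at an unadjusted p under 0.05 (beside 3.79% of all genes) and 3 without overlap (beside 6.4%), with sums of 304 to 407 CPM in KO and 421 to 456 in KO_WT. Oligodendrocyte markers had 10 of 10 lower means (median -0.39) and sums of 4997 to 10877 and 9110 to 11776. Astrocyte markers had 6 of 8 lower and microglial markers 7 of 8 lower, each with 3 without overlap. The part of these cell types in the higher subunit and RNA processing means was not tested. KI_WT against KO_WT, which shares the KO_WT libraries, also had higher means for 35 of 36, 9 of 9, 11 of 11 and 16 of 16, with astrocyte markers lower in 8 of 8 and oligodendrocyte markers in 9 of 10. Beside these, the 6 mitochondrial genes inside the stretch had medians of 0.14 and 0.31 and the 7 others -0.09 and -0.03. In the difference between the KI and the KO effect, 29 of 36, 8 of 9, 10 of 11 and 15 of 16 nuclear subunits were lower, beside 51% of all genes. Their medians were -0.15, -0.13, -0.25 and -0.15. RNA processing genes were lower in 19 of 26, transcription genes in 9 of 10, replication genes in 7 of 13 and biogenesis regulators in 5 of 10. A lower difference was thus not confined to mitochondrial genes.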

How the data were processed

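Poly(A) RNA of 12 mouse cortices was measured, 3 per group, grouped by the labels, which give RNA integrity numbers above 8.0, and numbered within a group in the order of the records. The authors deposited whole-number counts per gene and RPKM values. Per the submitters' processing notes, bcl2fastq 2.17, STAR 2.5.0c, Cufflinks 2.2.1 and GRCm38 were used; the counter, gene models and strand setting are not given in the sources used here. The deposited RPKM equal the deposited counts scaled by annotated length and library total, checked on 10 mitochondrial genes to within 0.00067%. Both tables hold 1 column per library and 0 columns were left unassigned.

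Counts were fitted with edgeR 4.0.16 in R 4.3.3 (filterByExpr, TMM, quasi-likelihood, 1 mean per group over all 12 libraries, which leaves 8 degrees of freedom; the common dispersion gives a biological variation of 15.7%), with Benjamini-Hochberg adjustment over 17441 genes. Shares were compared by two-sided exact permutation. Mitochondrial transcripts of GENCODE M21 were aligned to all its transcripts with BLAST 2.17.0; matches of at least 99% over 50 bases or more define the copied stretch, and those of at least 90% are listed. Sequences are from GENCODE M21. On simulated counts of 17278 and 17286 genes with 200 changed in KI against KI_WT, 35% of genes changed 1.5-fold and 81% of those changed 2-fold were called. These percentages hold for data with 200 changed genes. In the real comparison edgeR called 0 of all genes, with a smallest adjusted p of 0.705, so the percentages give no detection limit for it. Alternatives were other scalings (RLE, library totals, nuclear genes alone), filters, only the groups compared, and DESeq2 1.42.0. Further ones used limma 3.58.1 on counts (voom with quality weights per library, named limma voom here) and on log2(RPKM + 0.1) or log2(RPKM + 1). The rest were marker, animal-number and Y-linked terms, and leaving out each library.

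All 13 messenger and 2 ribosomal RNAs are named, transfer RNAs with a mean of at least 10 counts, copies with the same mean, and, of each list of nuclear genes, the 2 members with the smallest p in each of KI against KI_WT and KO against KO_WT. mt-Atp8 is placed by position. The members and lists were chosen with earlier results of these data known. The split at the copied stretch and the fits within an animal-number range were added after the data were seen.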

Additional observations from a re-analysis of the deposited data

How the results depend on the processing

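Over the 5 comparisons, 66 alternative values were obtained by changing a setting and 36 by leaving out 1 library. The number of mitochondrial genes called was 0 in each of them except in KI against KO. There it was 1 with no count filter and 1 with DESeq2 (beside 14 of all genes), mt-Ts1 in both. No share of all genes was taken in the fit with no count filter. The median of the 13 messenger RNAs in KI against KI_WT was -0.31 with terms for regional markers, and -0.63 to -0.37 with 1 library left out. Without KI_WT 2 it was -0.37. The median of the 6 genes inside the stretch went from -0.15 to 0.20 in KI against KI_WT with 1 library left out, 0.20 being without KI_WT 2, and was 0.59 in KI_WT against KO_WT with a term for the animal number range. For the difference of effects the median of the 13 was -0.62 to -0.30 with 1 library left out. The ratio of shares in KI_WT against KO_WT was 0.893 to 1.09 with 1 library left out, turning above 1 without KI_WT 3 (1.09) and without KO_WT 1 (1.01); its exact permutation p was 1 with all libraries. The cause of these changes was not tested. The median of the 7 other messenger RNAs was also compared over settings other than leaving out 1 library, among them a fit of only the groups compared. Over 14 such settings, the reported one included, it was -0.65 to -0.43 in KI against KI_WT. In KI against KO it was -0.60 to -0.52, also over 14. In KO against KO_WT it was -0.16 to 0.10 over 16 settings, which include the fits within an animal-number range. The -0.16 came from the fit of animal numbers above 200. With the regional marker terms the KO against KO_WT value was above 0. Of 2236 alternative values of single genes that were never called, 125 had the other sign. Of the 22 transfer RNAs, 14 had too few counts to be tested. No paired analysis was possible because the labels give each library its own animal number and the groups share none.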
